A study of Mus musculus with 4 samples.

Results

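The 9 genes described here are Gfap, Aqp4, Slc1a2, Slc1a3, Gja1, Glul, S100b, Apoe and Agt, a set of astrocyte genes chosen by name from the 32285 genes of a spatial transcriptomics data set of the mouse brain. Visium spatial RNA sequencing captured polyadenylated RNA on an array of barcoded spots, and each spot is a small region of tissue that can hold several cells of different types. Coronal sections with the dorsal hippocampus came from 4 adult male ArcCreERT2::eYFPflx mice on a C57BL/6 background, aged 3 to 4 months, 1 section per mouse. In this line a Cre that tamoxifen activates is expressed from the promoter of Arc, an activity-dependent gene, and switches on eYFP in cells active at the time of the drug, and all 4 mice received 4-hydroxytamoxifen under brief isoflurane before a memory retention test. The 2 trained mice had learned active place avoidance, in which a sector of a rotating arena gives a foot shock, over 4 trials on 2 days. The 2 untrained mice had the same sessions without shock, and tissue was taken 3 days after the retention test. The labels call the tissue hippocampus, but the sections also held cortex, thalamus, hypothalamus, striatum and fibre tracts, so the levels below are given by region.

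Astrocytes clear glutamate and potassium from around synapses, supply glutamine to neurons, ensheath blood vessels with endfeet and couple to each other through gap junctions. They differ between brain regions and between grey and white matter, and they change shape and gene expression after injury. Among the 9 genes, Gfap encodes an intermediate filament, Aqp4 the water channel of the endfeet and Gja1 the gap junction protein connexin 43. Slc1a2 and Slc1a3 encode the glutamate transporters GLT-1 and GLAST, and Glul encodes glutamine synthetase, which converts the glutamate taken up into glutamine. S100b encodes a calcium-binding protein, Apoe the main apolipoprotein of the brain and Agt angiotensinogen, the precursor of the angiotensins. None of them belongs to astrocytes alone, since radial-like progenitors, ependymal cells, oligodendrocytes, microglia and cells of the choroid plexus express some of them.

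The sections held 2865 and 3055 spots over tissue for trained mice 1 and 2 and 2359 and 2661 spots for untrained mice 1 and 2. Their total unique molecular identifier (UMI) counts were 7119995, 10330015, 3560294 and 6581748 in the same order, so untrained 1 was the shallowest and trained 2 the deepest. Spots were assigned to 14 regions from marker genes that included none of the 9 astrocyte genes, and hippocampal spots between the cell layers formed a further region, called inter-layer hippocampus. Between 62.1% and 71.7% of the spots of a section were given a region. White matter spots, for instance, carried 22081, 28296, 28123 and 31254 UMIs of the white matter list per 1000000 UMIs (CPM) in trained 1, trained 2, untrained 1 and untrained 2, against 4429 to 7419 CPM over the whole sections. Choroid plexus spots of trained 2 stood apart, with 921 CPM of the choroid plexus list against 2645 to 4044 CPM in the other sections, and with 21341 CPM of the white matter list against 3717 to 7746 CPM. Untrained 1 held 31 layer 5 spots, against 175 to 196 in the other sections.

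**Figure D1:**
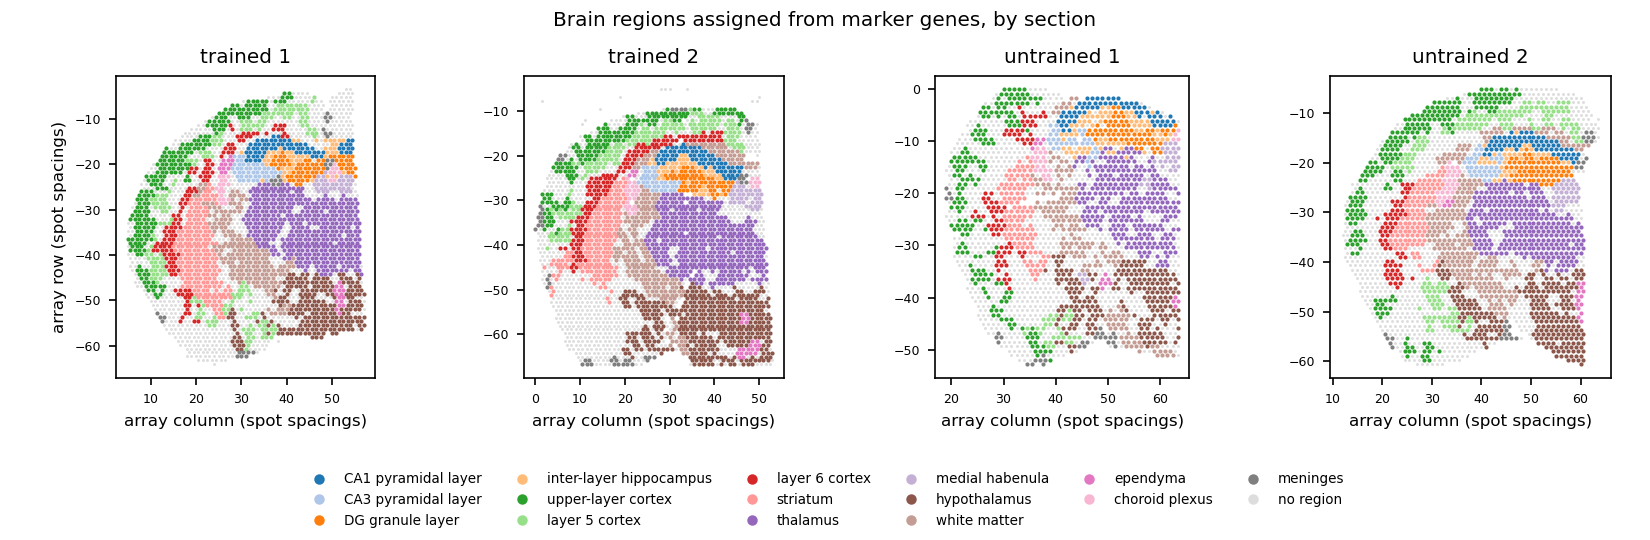
Spots of the 4 sections, coloured by assigned region, with array column and row in spot spacings on the axes; grey spots were given no region. The layers of the hippocampus, the fibre tracts, the cortical layers, the thalamus, the hypothalamus and the striatum form continuous areas in each section, and untrained 1 has few layer 5 spots (31).

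On GRCm38 with the GENCODE vM21 annotation, Gfap lies at chr11:102887336-102900912 on the minus strand, Slc1a2 at chr2:102658659-102790784 on the plus strand and Slc1a3 at chr15:8634124-8710764 on the minus strand. Gja1 lies at chr10:56377330-56402513 on the plus strand and Glul at chr1:153899944-153909723 on the plus strand. S100b lies at chr10:76253853-76261159 on the plus strand, Apoe at chr7:19696109-19699188 on the minus strand and Agt at chr8:124556534-124569706 on the minus strand. The ratio of highest to lowest regional mean was 27.7 for Gfap, 18.8 for Agt, 7.92 for Aqp4 and 4.41 for S100b. The 250 bases before the start of transcription, from RefSeq on GRCm38.p6, are shown for Gfap, Agt and S100b. They are the windows chr11:102897201-102897450 on the minus strand, chr8:124569707-124569956 on the minus strand and chr10:76253586-76253835 on the plus strand, written 5′ to 3′. Capitals mark matches on either strand to an AP-1 site (TGANTCA), a STAT site (TTCNNNGAA), a nuclear factor I partial site (TTGGC) or a SOX site (ACAANG).
Gfap: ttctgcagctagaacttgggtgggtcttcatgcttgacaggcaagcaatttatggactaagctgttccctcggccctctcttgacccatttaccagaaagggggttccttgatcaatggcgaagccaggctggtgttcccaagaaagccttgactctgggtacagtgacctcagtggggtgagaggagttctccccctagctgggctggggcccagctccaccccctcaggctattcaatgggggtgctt
Agt: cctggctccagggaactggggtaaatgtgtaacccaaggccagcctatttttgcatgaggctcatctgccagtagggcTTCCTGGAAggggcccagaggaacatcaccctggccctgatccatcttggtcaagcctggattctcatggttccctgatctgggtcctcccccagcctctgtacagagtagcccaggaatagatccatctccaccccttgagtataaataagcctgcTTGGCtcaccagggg
S100b: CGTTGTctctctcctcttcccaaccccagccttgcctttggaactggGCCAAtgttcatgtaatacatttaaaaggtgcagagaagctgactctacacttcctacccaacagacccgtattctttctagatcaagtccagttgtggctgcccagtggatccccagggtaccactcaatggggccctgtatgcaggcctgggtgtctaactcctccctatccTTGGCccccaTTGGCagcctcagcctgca
The Agt window held a STAT match that starts 172 bases before the start of transcription and a nuclear factor I match 15 bases before it. The S100b window held nuclear factor I matches at 203, 29 and 19 bases before the start and a SOX match at 250 bases. The Gfap window held none of the 4 motifs in these letters, and it lies within an intron of a longer annotated Gfap transcript and of an antisense transcript. Over 32536 such windows of 250 bases, 6.73% held the AP-1 letters, 7.04% the STAT letters, 41.6% the nuclear factor I letters and 36.2% the SOX letters. These matches are a description of the sequence, and none was tested for binding.

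The 9 genes were distributed in different ways over the sections. Among differences above 0, Gfap had its largest in the meninges spots and white matter, S100b in white matter and Agt in the ependyma and hypothalamus, while Slc1a2 was highest in the inter-layer hippocampus, the meninges spots and the upper cortical layers and among the lowest in the hypothalamus. In a fit over 60 sums of counts (15 regions in 4 sections), each region was compared with the mean of the log levels of the other 14 regions, a mean of logs that is not the ratio of the CPM values printed here. A gene was called where its adjusted p in edgeR's quasi-likelihood test was below 0.05 over all 7195 genes tested. Of the 135 combinations of a member and a region, 68 were called, against 17.0% of the combinations of all genes. In these sums of many cells, the number of astrocytes, the RNA per astrocyte and RNA from other cell types cannot be told apart.

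In 4 regions members were called higher and none lower. In white matter 6 members were higher and 0 lower, where 16.0% of all genes were called higher and 10.1% lower. The inter-layer hippocampus, which holds the dendrites and few neuronal cell bodies, likewise had 6 higher and 0 lower, against 3.47% of all genes higher and 0.181% lower. The meninges spots had 6 higher and 0 lower (1.85% and 0.195% of all genes), and the ependyma, the lining of the ventricles, had 4 higher and 0 lower (2.60% of all genes in each direction).

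In the layers packed with neuronal cell bodies the calls ran downward. Layer 6 cortex had 0 members higher and 7 lower (11.1% of all genes higher and 5.10% lower), layer 5 had 0 and 5 (12.1% and 6.35%) and upper-layer cortex had 1 and 6 (16.0% and 9.42%). The CA3 pyramidal layer had 0 members higher and 5 lower (10.8% and 6.28% of all genes) and CA1 had 0 and 3 (9.30% and 4.59%), while the DG granule layer had 2 and 1 (11.4% and 6.75%). Elsewhere the directions were mixed. The thalamus had 2 members higher and 2 lower (19.0% and 15.8% of all genes), the hypothalamus 2 and 2 (16.3% and 11.5%), the medial habenula 2 and 1 (6.10% and 4.71%), the choroid plexus 2 and 1 (10.4% and 6.21%) and the striatum 0 and 2 (11.7% and 6.81%).

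**Figure D2:**
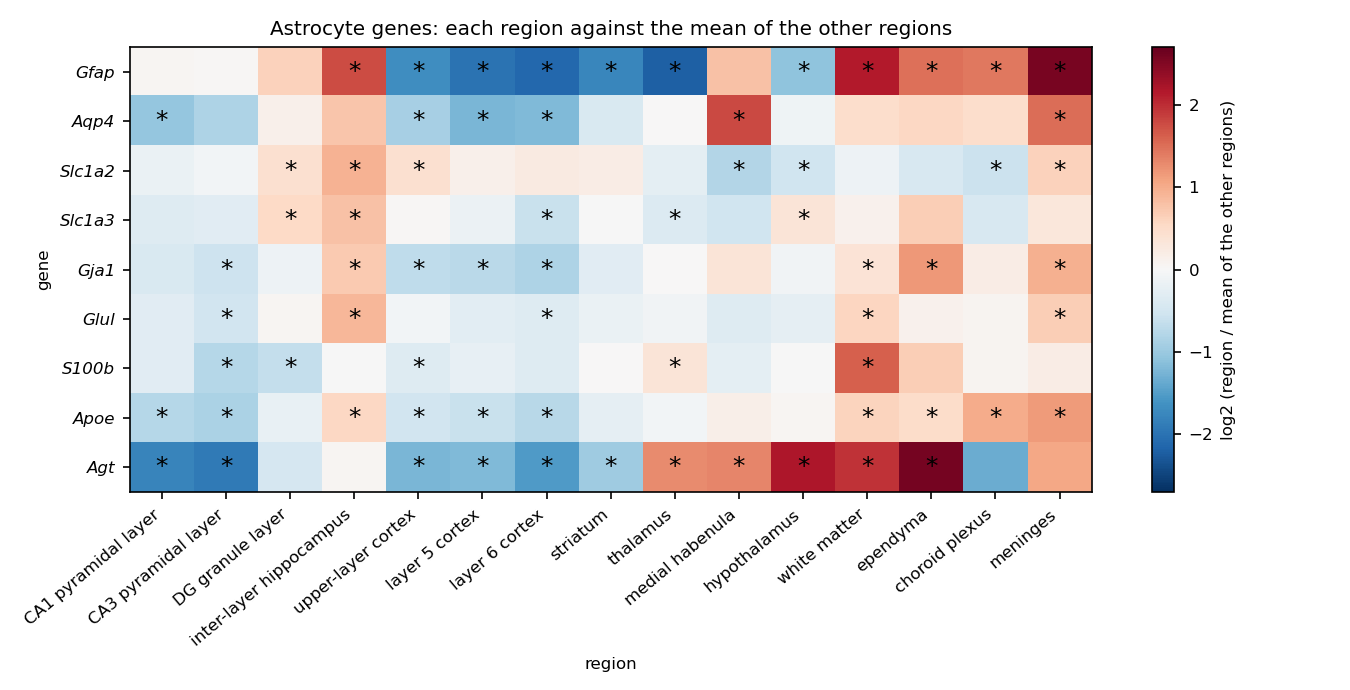
Log2 level of each of the 9 genes in each of 15 regions against the mean of the log levels of the other regions (colour), from the fit over 60 sums of 4 sections; an asterisk marks an adjusted p below 0.05. Warm cells gather in white matter, meninges, ependyma and inter-layer hippocampus and cold cells in the cortical layers, CA1 and CA3, with Agt and Slc1a2 of opposite sign in the hypothalamus (2.18 and -0.53).

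Gfap, the filament gene, had the widest range of the 9 genes, from a mean of 288 CPM in the meninges spots to 10.4 CPM in layer 6 cortex, a ratio of 27.7. In white matter it reached 133 and 159 CPM in trained 1 and trained 2 and 305 and 276 CPM in untrained 1 and untrained 2. In the thalamus it was at 6.30, 9.23, 24.0 and 22.4 CPM in the same order. Every section was higher in white matter than in the thalamus, and the trained sections were the lower ones in both. Relative to the other regions, Gfap was higher in white matter by 2.13 (SE 0.16) on the log2 scale (adjusted p = 4.28e-22) and lower in the thalamus (-2.21, SE 0.24, adjusted p = 3.98e-14). It was also higher in the inter-layer hippocampus (1.75), the meninges spots (2.55), the choroid plexus (1.42) and the ependyma (1.48), and lower in layer 6 (-2.11), layer 5 (-1.99), the striatum (-1.76), upper-layer cortex (-1.67) and the hypothalamus (-1.09). The meninges call was lost without edge spots (1.65, adjusted p = 0.150), the choroid plexus call without untrained 2 (1.26, adjusted p = 0.0717), and the ependyma call without edge spots (1.46, adjusted p = 0.132), without the section term (1.43, adjusted p = 0.0643), without trained 2 (1.08, adjusted p = 0.298) and without untrained 2 (1.57, adjusted p = 0.0565).

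Within the cell layers of the hippocampus Gfap was not called. The dentate gyrus (DG) granule layer held 59.2, 143, 73.5 and 58.2 CPM in trained 1, trained 2, untrained 1 and untrained 2, with trained 2 the highest. Layer 6 of untrained 1 held 0 Gfap UMIs, which allows up to 17.7 CPM, and layer 5 of that section also held 0, which allows up to 34.0 CPM. Ordered by mean level, neighbouring regions overlapped between sections in 12 of 14 pairs for Gfap. The exceptions were the steps on both sides of the hypothalamus (21.9 to 30.0 CPM), which separated the CA3 pyramidal layer above it from upper-layer cortex below it.

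White matter spots held 13.9% of all Gfap UMIs of trained 1 (95% Wilson interval 10.3 to 18.6%), 28.4% of trained 2 (24.3 to 33.0%), 27.6% of untrained 1 (21.0 to 35.4%) and 24.5% of untrained 2 (20.4 to 29.2%). The same spots held 3.90%, 7.08%, 3.69% and 4.89% of all UMIs, which lies below the interval of the Gfap share in every section. The intervals cover counting error alone.

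Aqp4, the water channel gene, was highest in the medial habenula, with 192 and 176 CPM in the trained sections and 52.8 and 231 CPM in the untrained ones. Untrained 1 was the lowest there, but its value rests on 2 Aqp4 UMIs, against 13 to 27 in the other sections. The call in the habenula was 1.78 (SE 0.27, adjusted p = 7.2e-08), and the meninges spots were also higher (1.52). Aqp4 was lower in layer 5 (-1.22), layer 6 (-1.19), upper-layer cortex (-0.90) and CA1 (-1.04), and in white matter, where Gfap was far above its mean, Aqp4 was not called (36.0, 72.4, 68.6 and 83.9 CPM). The meninges call was lost without edge spots (1.41, adjusted p = 0.226) and without trained 1 (1.33, adjusted p = 0.107), and the CA1 call without edge spots (-0.90, adjusted p = 0.0759), trained 1 (-1.13, adjusted p = 0.0795), untrained 1 (-1.0, adjusted p = 0.0602) or untrained 2 (-0.57, adjusted p = 0.367).

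Gja1, which encodes connexin 43, was higher in the ependyma (1.16, SE 0.24, adjusted p = 0.00036), the meninges spots (0.96), the inter-layer hippocampus (0.70) and white matter (0.37). Its ependymal level was 261, 493, 501 and 261 CPM in trained 1, trained 2, untrained 1 and untrained 2. All 4 values lay above the whole-section levels of 129 to 143 CPM, and 1 section of each group made up the higher pair. In the untrained sections these values rest on few Gja1 UMIs. It was lower in layer 6 (-0.83), layer 5 (-0.72), upper-layer cortex (-0.68) and CA3 (-0.56). Without trained 2 the calls in the ependyma (0.77, adjusted p = 0.178) and the inter-layer hippocampus (0.51, adjusted p = 0.324) were lost. The meninges call was lost without edge spots (0.68, adjusted p = 0.430) and without untrained 1 (0.72, adjusted p = 0.181), and the white matter call in DESeq2 (0.31, adjusted p = 0.0980) and without untrained 2 (0.26, adjusted p = 0.211). The CA3 call was lost without edge spots (-0.48, adjusted p = 0.0710), without the filter on low counts (-0.53, adjusted p = 0.0668), and without trained 1 (-0.59, adjusted p = 0.0755), untrained 1 (-0.47, adjusted p = 0.120) or untrained 2 (-0.54, adjusted p = 0.0723).

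Slc1a2, the main glutamate transporter gene of forebrain astrocytes, was higher in upper-layer cortex, where Gfap was lower. Its level in upper-layer cortex was 1300, 1325, 1198 and 1373 CPM in trained 1, trained 2, untrained 1 and untrained 2, a narrow band in which the groups overlapped. In the hypothalamus it was 630, 554, 825 and 773 CPM, below upper-layer cortex in every section. The calls were higher in upper-layer cortex (0.43, SE 0.10, adjusted p = 0.000356), the inter-layer hippocampus (0.93), the DG granule layer (0.43) and the meninges spots (0.61), and lower in the hypothalamus (-0.53), the medial habenula (-0.80) and the choroid plexus (-0.58). White matter, at 732 to 938 CPM, was not called (-0.14, adjusted p = 0.426). The granule layer call was lost without trained 2 (0.12, adjusted p = 0.418), the choroid plexus call without trained 1 (-0.52, adjusted p = 0.0746), and the meninges call without edge spots (0.33, adjusted p = 0.555), trained 1 (0.55, adjusted p = 0.0905) or untrained 1 (0.54, adjusted p = 0.0923). With the sums thinned to the smallest total, the calls in upper-layer cortex (0.57, adjusted p = 0.0649), the hypothalamus (-0.67, adjusted p = 0.0802), the medial habenula (-0.35, adjusted p = 0.397), the choroid plexus (-0.21, adjusted p = 0.564), the granule layer (0.46, adjusted p = 0.271) and the meninges spots (0.61, adjusted p = 0.0814) were lost.

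Slc1a3, the other glutamate transporter gene, which is also expressed by radial-like progenitors of the dentate gyrus, had its highest mean in the ependyma, at 595 CPM, where it was not called (0.66, adjusted p = 0.0644). It was called higher in the inter-layer hippocampus (0.78), the DG granule layer (0.54) and the hypothalamus (0.34), and lower in layer 6 (-0.61) and the thalamus (-0.37). In the hypothalamus it was at 325, 443, 362 and 359 CPM, above the whole-section levels of 263, 350, 274 and 281 CPM of the same sections. Its high value in the DG granule layer was that of trained 2 (796 CPM, against 275, 285 and 342 CPM), and without trained 2 the calls in the granule layer (0.15, adjusted p = 0.505), the inter-layer hippocampus (0.42, adjusted p = 0.277) and the thalamus (-0.20, adjusted p = 0.138) were lost. The thalamic call was also lost without the filter on low counts (-0.21, adjusted p = 0.0799), and the hypothalamic one in DESeq2 (0.28, adjusted p = 0.122), without the section term (0.34, adjusted p = 0.0787) and without untrained 2 (0.29, adjusted p = 0.0663).

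Glul had the narrowest range of the 9 genes, from 919 CPM in the inter-layer hippocampus to 425 CPM in CA3, a ratio of 2.16. Its level in the inter-layer hippocampus was 705 and 1134 CPM in the trained sections and 881 and 954 CPM in the untrained ones, with trained 1 the lowest and trained 2 the highest. It was called higher there (0.90, SE 0.13, adjusted p = 5.09e-08), in white matter (0.58) and in the meninges spots (0.66), and lower in CA3 (-0.52) and layer 6 (-0.35). The meninges call was lost without edge spots (0.03, adjusted p = 0.991), untrained 1 (0.62, adjusted p = 0.0546) or untrained 2 (0.41, adjusted p = 0.614), and the CA3 call without untrained 2 (-0.43, adjusted p = 0.0704). With the sums thinned to the smallest total, the calls in the inter-layer hippocampus (0.60, adjusted p = 0.182), CA3 (-0.77, adjusted p = 0.0787) and the meninges spots (0.75, adjusted p = 0.0814) were lost. The layer 6 call, the weakest of the 5, was lost in 8 of 11 alternatives, among them without trained 1 (-0.34, adjusted p = 0.112), trained 2 (-0.27, adjusted p = 0.0817) or untrained 2 (-0.32, adjusted p = 0.123).

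S100b was the one gene of the 9 whose highest region, white matter, did not overlap with the next. Its level there was 450.5 and 443 CPM in the trained sections and 655 and 516 CPM in the untrained ones, and no section of any other region reached 443 CPM. The difference was 1.62 (SE 0.10, adjusted p = 1.89e-27). The thalamus was also higher (0.35), while CA3 (-0.78), the DG granule layer (-0.64) and upper-layer cortex (-0.35) were lower. In the granule layer S100b was at 102, 242, 73.5 and 69.9 CPM, so that trained 2 alone lay near its own whole-section level of 229 CPM. That call was lost without trained 1 (-0.55, adjusted p = 0.0741) and without untrained 2 (-0.34, adjusted p = 0.321). The upper-layer cortex call was lost without trained 1 (-0.36, adjusted p = 0.0689), trained 2 (-0.22, adjusted p = 0.185) or untrained 2 (-0.37, adjusted p = 0.0537), without the filter on low counts (-0.23, adjusted p = 0.168) and without the section term (-0.36, adjusted p = 0.0604).

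Apoe, the apolipoprotein gene, was highest at the surfaces of the brain. The meninges spots held 3935, 3958, 4904 and 5589 CPM and the choroid plexus spots 3780, 3006, 3843 and 4237 CPM, against 1899 to 2245 CPM over the whole sections. Every section was above its whole-section level in both regions. Apoe was called higher in the meninges spots (1.14), the choroid plexus (1.01, SE 0.12, adjusted p = 5.64e-12), white matter (0.59), the inter-layer hippocampus (0.56) and the ependyma (0.49). It was lower in CA3 (-0.85), CA1 (-0.77), layer 6 (-0.76), layer 5 (-0.61) and upper-layer cortex (-0.51). The meninges call was lost without edge spots (0.41, adjusted p = 0.252) and the inter-layer call without trained 2 (0.26, adjusted p = 0.106). The white matter call was lost with the sums thinned to the smallest total (0.35, adjusted p = 0.102). The ependyma call was lost without trained 1 (0.44, adjusted p = 0.158), without untrained 2 (0.51, adjusted p = 0.0528) and without the section term (0.45, adjusted p = 0.0793).

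Agt, the angiotensinogen gene, had the largest hypothalamic difference of the 9 genes. In the hypothalamus it was at 216, 202, 166 and 157 CPM in trained 1, trained 2, untrained 1 and untrained 2, against 76.8, 82.5, 80.05 and 58.65 CPM over the whole sections. All 4 sections were higher in the hypothalamus than in any of their own cortical regions, where Agt was at 9.15 to 79.4 CPM. The difference was 2.18 (SE 0.14, adjusted p = 5.08e-28). White matter (1.95), the ependyma (2.58), the thalamus (1.28) and the medial habenula (1.31) were also higher. The hippocampal pyramidal layers CA1 (-1.79) and CA3 (-1.90), layer 6 (-1.54), upper-layer cortex (-1.24), layer 5 (-1.19) and the striatum (-0.95) were lower. Without trained 2 the calls in layer 5 (-0.76, adjusted p = 0.155) and the striatum (-0.73, adjusted p = 0.196) were lost, without trained 1 that in CA1 (-1.24, adjusted p = 0.102) and without untrained 2 that in the habenula (1.18, adjusted p = 0.0587).

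At low Agt levels the depth set a limit. CA3 held 0 Agt UMIs in both untrained sections, which allows up to 34.8 and 23.8 CPM, and CA1 held 0 in trained 1, which allows up to 15.6 CPM. The ependyma of untrained 1 held 0 Agt UMIs among 11982 UMIs, which allows up to 250.4 CPM, so that sum says little beside the 186 to 408 CPM of the other sections. Hypothalamic spots held 27.2% of all Agt UMIs of trained 1 (95% Wilson interval 23.7 to 31.1%), 34.7% of trained 2 (31.6 to 38.0%), 21.4% of untrained 1 (17.0 to 26.5%) and 26.4% of untrained 2 (22.3 to 31.0%). The same spots held 9.67%, 14.2%, 10.3% and 9.85% of all UMIs, below the interval of the Agt share in each section.

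**Figure D3:**
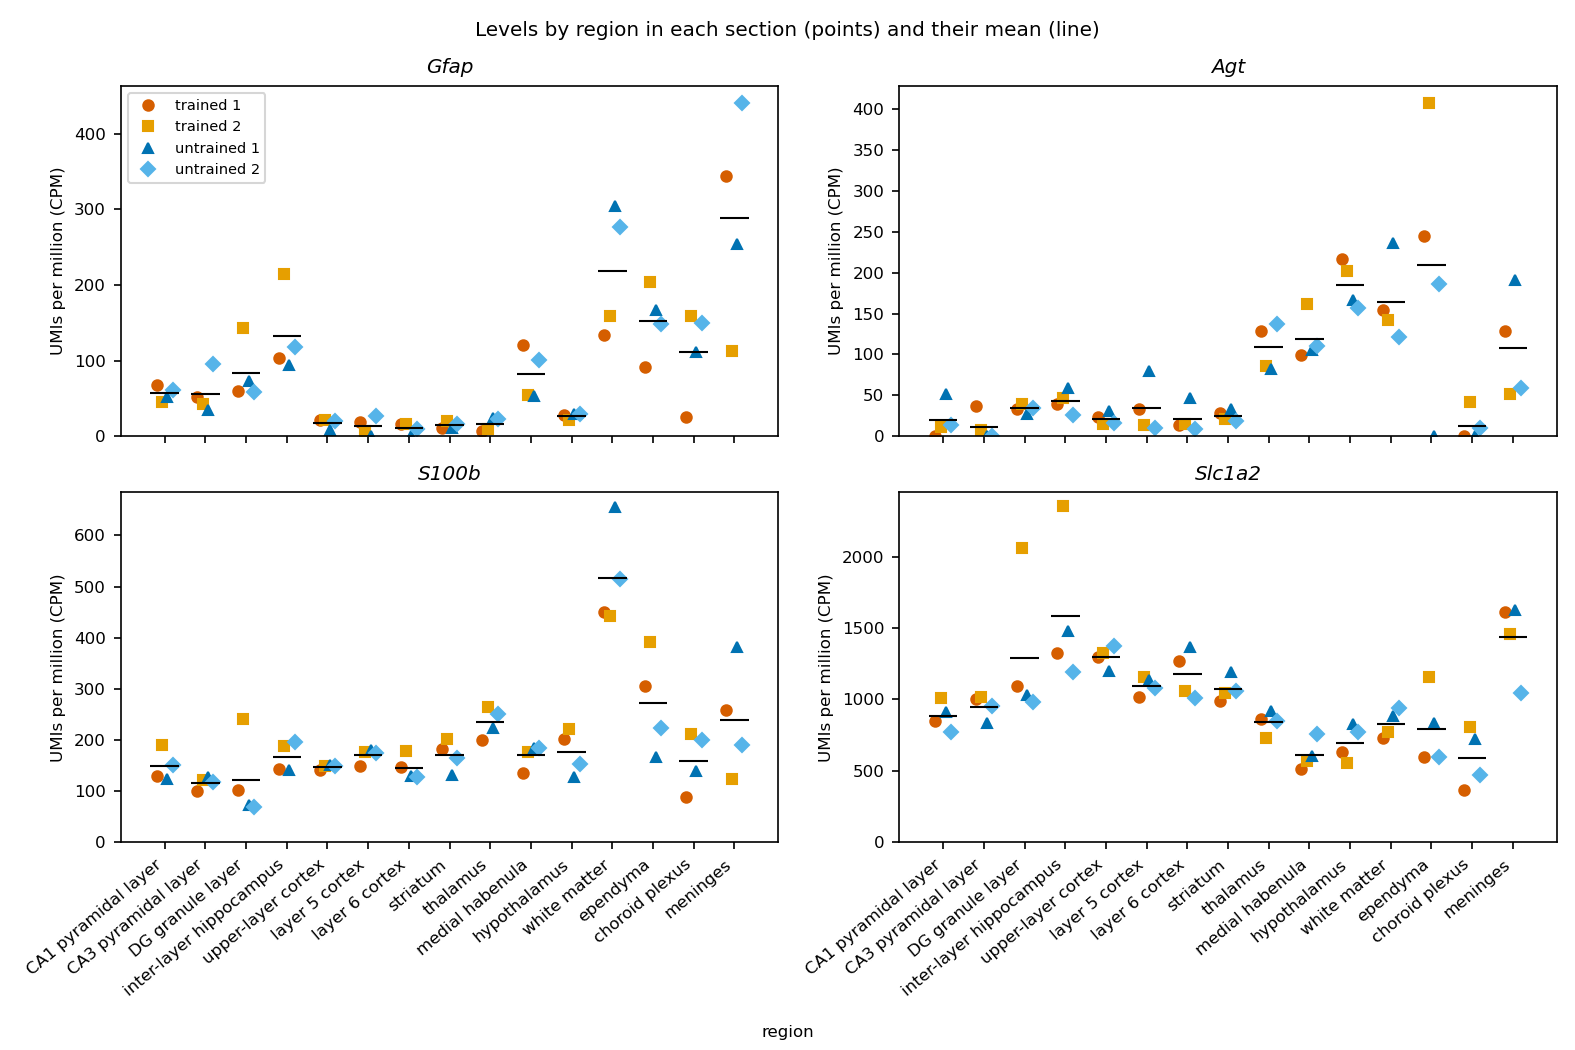
CPM of Gfap, Agt, S100b and Slc1a2 by region, a point per section and a line at the mean of the 4 sections. Gfap peaks in meninges spots (mean 288) and white matter, Agt in ependyma and hypothalamus, S100b in white matter alone (443 to 655), and Slc1a2 varies least, with its highest mean in the inter-layer hippocampus (1586).

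Of the 68 calls, 34 held in every alternative in which they were tested, 34 were lost in at least 1 and 0 reversed. All 68 were tested in 10 of the 11 alternatives, but only 22 of them with the sums thinned to the smallest total, where 11 were lost. Markers of other cell types moved with some of these regions, and their part in the members' levels was not tested. In white matter, 6 of 7 tested microglia markers and 3 of 3 tested markers of oligodendrocyte precursors were also higher, where 16.0% of all genes were. The microglia list summed to 879 to 1138 CPM there, against 489 to 583 CPM over the whole sections. In the meninges spots, 4 of 4 tested blood genes and 3 of 8 tested endothelial markers were higher (1.85% of all genes), and the endothelial list summed to 810 to 1433 CPM against 377 to 413 CPM over the whole sections.

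The difference between members was taken as a log2 ratio of a pair of genes in a region, relative to the same ratio over the whole section. For Agt against Gfap this was 1.90, 2.13, 1.45 and 2.31 in the hypothalamus of trained 1, trained 2, untrained 1 and untrained 2, and -0.82, -1.22, -1.34 and -1.27 in white matter. Relative to the whole section, the ratio was shifted toward Agt in the hypothalamus and toward Gfap in white matter, in 4 of 4 sections. S100b against Slc1a2 was 1.75, 1.24, 2.12 and 1.56 in white matter and -0.96, -1.03, -1.17 and -1.35 in the DG granule layer, again with the same sign in each section. The 2 transporter genes also separated, since Slc1a3 against Slc1a2 was 0.94, 1.10, 0.79 and 0.76 in the hypothalamus. Each of these sets of 4 gave p = 0.13 in an exact two-sided sign-flip permutation test over sections, which is the smallest p that 4 sections allow, and 120 such ratios were computed. Aqp4 against Gja1 was of mixed sign in white matter (-0.60, 0.26, 0.21 and 0.13), above 0 in 3 of 4 sections in the medial habenula (mean 1.05) and below 0 in 4 of 4 in layer 5 (mean -0.70).

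Away from the fibre tracts, the members parted over short distances. Gfap fell from 133 CPM in white matter to 50.1 CPM in the adjoining spots and 20.4 CPM at a distance of 3 spots in trained 1, and from 159 to 49.3 and 20.2 CPM in trained 2. In the untrained sections it went from 305 to 71.3 and 28.7 CPM and from 276 to 61.9 and 28.4 CPM. Most of the drop over 3 spots lay in the first spot in all 4 sections. S100b went from 450.5 to 281 and 167 CPM, from 443 to 296 and 203 CPM, from 655 to 214 and 184 CPM and from 516 to 270 and 203 CPM. Slc1a2 ran the other way, at 732, 771, 884 and 938 CPM in white matter and 1013, 981, 1104 and 1078 CPM at 5 spots or more. Glul went from 649, 656, 952 and 935 CPM in white matter to 506, 449, 597 and 578 CPM at a distance of 3 spots.

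**Figure D4:**
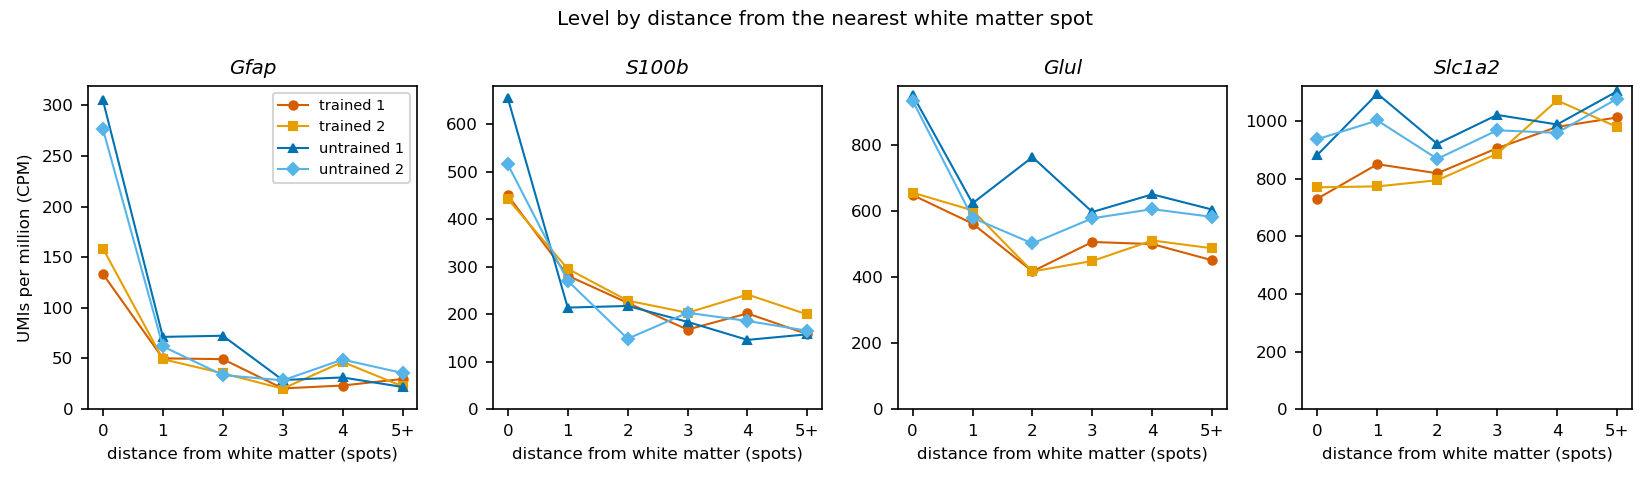
CPM of Gfap, S100b, Glul and Slc1a2 against distance from the nearest white matter spot, in spots (0 is white matter, the last point is 5 or more), a line per section. Gfap, S100b and Glul decline with distance in all 4 sections (Gfap from 133 to 305 CPM at 0 to 20.2 to 28.7 CPM at 3), while Slc1a2 is higher at 5 or more than at 0 in each.

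From the meninges spots inward, Gfap was at 344, 113, 255 and 441 CPM on the surface and at 67.6, 65.4, 90.7 and 143 CPM in the adjoining spots. Apoe was at 3935, 3958, 4904 and 5589 CPM on the surface and at 2339, 2360, 2466 and 2816 CPM next to it. Both were lower in the adjoining spots in 4 of 4 sections, whereas Glul was lower in 3 of 4 (688 to 557, 955 to 725 and 1280 to 469 CPM) and higher in trained 2 (564 to 615 CPM).

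Across the 60 sums, with each section centred on its own mean log level, the members' patterns were compared by Pearson correlation as a description, since sums of a section share a library and depth. The 36 pairs of members ranged from -0.054 for Slc1a2 and Agt to 0.739 for Gja1 and Apoe, and Slc1a2 with Gfap gave 0.062. Among all tested genes, the pattern most like that of Gfap was that of the metallothionein gene Mt1 (0.730), and the closest to S100b was that of the desaturase gene Scd2 (0.821). For Slc1a2 it was the tetraspanin gene Tspan7 (0.756), for Glul the cystatin gene Cst3 (0.789) and for Apoe the tetraspanin gene Cd63 (0.834). Agt was most like Slc6a11 (0.742), a GABA transporter gene of astrocytes, and Slc1a3 most like the glutathione transferase gene Gstm1 (0.662). Aqp4 was most like the tetraspanin gene Cd151 (0.661).

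A wider list of 50 astrocyte genes that leaves out the 9 members, of which 45 were tested, gave the setting for these patterns. In white matter 26 were higher and 0 lower (median log2 difference 0.42), against 16.0% of all genes higher and 10.1% lower, among them the glycine transporter gene Slc6a9 (2.10), the adhesion gene Hepacam (1.43) and the potassium channel gene Kcnj10 (0.96). In layer 6, 0 were higher and 31 lower (median -0.58; 11.1% and 5.10% of all genes), with Mt2 at -1.21 and the receptor gene Ntsr2 at -0.92. The thalamus had 20 higher and 5 lower (19.0% and 15.8% of all genes), with Grin2c (1.55), Slc6a11 (1.48) and Kcnj10 (1.27) higher and Mfge8 lower (-0.96). The hypothalamus had 13 higher and 6 lower (16.3% and 11.5% of all genes), with Itih3 (3.09) and Slc6a11 (1.39) higher and Id3 lower (-0.94), and the inter-layer hippocampus had 19 higher and 0 lower (3.47% and 0.181% of all genes).

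The pathways around single members are given beside the same shares of all genes, 19.0% higher and 15.8% lower in the thalamus, 16.0% and 10.1% in white matter and 16.3% and 11.5% in the hypothalamus. Of 9 tested genes of glutamate and glutamine handling, 5 were higher and 1 lower in the thalamus, including the glutamine transporter gene Slc38a1 (0.65), where Glul itself was not called. Of 12 tested lipoprotein and sterol genes, 4 were higher in white matter, as Apoe was, namely Apod (2.52), Srebf1 (1.40), Abcg1 (1.01) and Nr1h2 (0.81), and 1 was lower, the sterol synthesis gene Sqle (-0.69). Of 4 tested genes of the renin-angiotensin system, 0 were called in the hypothalamus, where Agt was high, and in the thalamus Atp6ap2, the prorenin receptor gene, was higher (0.88) and Ace, the angiotensin-converting enzyme gene, lower (-1.61). Of 6 tested genes known from reactive astrocytes, C4b (1.88) and S100a10 (0.63) were higher in white matter, and in the thalamus Hspb1 was higher (1.12) and Vim (-0.95), Serpina3n (-0.92) and C4b (-1.14) lower. Of 8 tested endfoot genes, 3 were higher and 0 lower in white matter.

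Training, the comparison for which the mice were prepared, moved no member past the threshold over the whole section. In edgeR's quasi-likelihood test of the summed sections 0 of the 9 members were called, against 0.0145% of the 13810 genes tested (2 genes). Before adjustment 2 members, Glul and Gfap, were below 0.05 (7.96% of all genes), and in DESeq2 0 members were called and 1 was below 0.05 before adjustment (3.45% of all genes). Glul was at 466 and 501 CPM in the trained sections and at 634 and 603 CPM in the untrained ones, a log2 difference of -0.43 (SE 0.11, adjusted p = 0.502). Gfap was at 37.4 and 39.5 CPM against 40.7 and 55.2 CPM (-0.42, SE 0.15, adjusted p = 0.584). Both trained sections lay below both untrained ones for Glul, Gfap, Slc1a2, Apoe and Gja1, 5 of the 9 genes, where 11.9% of all genes had the trained sections wholly lower and 28.3% wholly higher.

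For the other members the groups overlapped. Agt was at 76.8 and 82.5 CPM against 80.05 and 58.65 CPM (0.14, adjusted p = 0.841), S100b at 179 and 229 CPM against 183 and 191 CPM (0.04, adjusted p = 0.948) and Slc1a3 at 263 and 350 CPM against 274 and 281 CPM (0.06, adjusted p = 0.925). Aqp4 was at 52.2 and 45.0 CPM against 41.3 and 50.1 CPM (-0.00, adjusted p = 0.996). The median log2 difference of the members was -0.16, against 0.01 over all genes tested. With 2 mice in each group edgeR's p-values rest on the spread between these 4 sections, drawn toward that of all genes. An exact permutation test of a single value cannot go below p = 0.333. Of the wider astrocyte list 0 of 50 were called (median 0.01), and 0 of 15 reactive astrocyte genes, 0 of 11 genes of glutamate and glutamine handling, 0 of 16 lipoprotein genes and 0 of 6 renin-angiotensin genes were called.

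Within single regions 116 of the 135 combinations of a member and a region passed the filter on low counts and 1 was called lower in the trained mice, where 0.0629% of all combinations were. This was Glul in the meninges spots, at 688 and 564 CPM in the trained sections and at 955 and 1280 CPM in the untrained ones (-1.08, SE 0.30, adjusted p = 0.0268), a region where 1.76% of the 908 genes tested were called. It was not called by DESeq2 (-1.04, adjusted p = 0.9998), without the filter on low counts (-0.91, adjusted p = 0.941) or with the sums thinned to the smallest total (-1.28, adjusted p = 0.328). Nor was it called without edge spots (-1.33, adjusted p = 0.886) or without any 1 of the 4 sections (-1.24 to -0.80). In the main fit of that region the spread was taken from the genes tested together, not from Glul alone.

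In the other regions Glul did not pass the threshold. Its log2 difference was below 0 in 13 of 15 regions (median -0.44), and both trained sections lay below both untrained ones in 10 of 15 regions, against 13.7% of the combinations of all genes and regions. In the thalamus Glul was at 482 and 409 CPM against 749 and 647 CPM (-0.70, SE 0.17, adjusted p = 0.237). In white matter it was at 649 and 656 CPM against 952 and 935 CPM (-0.59, adjusted p = 0.512), and in the medial habenula at 263 and 392 CPM against 555 and 784 CPM (-1.17, SE 0.29, adjusted p = 0.139). The groups overlapped in upper-layer cortex (525 and 537 CPM against 533 and 617 CPM), in the DG granule layer, in the inter-layer hippocampus, in CA1 and in layer 5. The thalamic difference was called without trained 1, where the lone trained section is assumed to vary like the untrained ones (-0.88, adjusted p = 6.05e-06). It was also called without the filter on low counts (adjusted p = 0.0439), and the habenular one without trained 2, on the same assumption (-1.40, adjusted p = 0.0436).

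Gfap in white matter, at 133 and 159 CPM in the trained sections and at 305 and 276 CPM in the untrained ones, differed by -1.01 (SE 0.21, adjusted p = 0.133). The groups did not overlap there, nor for Gfap in the thalamus (6.30 and 9.23 CPM against 24.0 and 22.4 CPM, -1.56, adjusted p = 0.593). Over all regions, Gfap had both trained sections lower in 3, higher in 2 (layer 6 and upper-layer cortex) and overlapping in 10. In layer 6, where Gfap did not pass the filter on low counts, untrained 1 held 0 Gfap UMIs. The limit of that 0 lies above both trained sections. Apoe had both trained sections lower in 7 of 15 regions and higher in 1, where 13.7% of the combinations of all genes and regions had both lower. Slc1a3 had them lower in 0 regions and higher in 4, and S100b had them lower in 3 and higher in 5, where 21.5% of the combinations of all genes and regions had both trained sections higher.

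In the DG granule layer the values of the members ran the other way without passing the threshold. All 8 members tested there were above 0 in the trained sections (median log2 difference 0.72), with 0 called (adjusted p = 0.959 to 0.973) and 0.00% of the 4892 genes tested called. Before adjustment 4 of the 8 were below 0.05 in edgeR (4.48% of all genes) and 2 in DESeq2 (0.286% of all genes), which called 0. Slc1a2 was at 1096 and 2061 CPM in trained 1 and trained 2 and at 1029 and 982 CPM in the untrained sections, and Slc1a3 was at 275 and 796 CPM against 285 and 342 CPM. The high value was that of trained 2 in both, while trained 1 lay close to the untrained sections. Both trained sections lay above both untrained ones for 3 of the 8 members (15.3% of all genes there), Slc1a2, S100b (102 and 242 CPM against 73.5 and 69.9 CPM) and Aqp4 (84.6 and 79.1 CPM against 27.6 and 34.9 CPM). Of these, only for Aqp4 was trained 1 the higher of the trained sections, and its values in the untrained sections rest on few Aqp4 UMIs.

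Other lists also stood apart in the granule layer of trained 2. Its spots held 796 CPM of the granule cell list, against 983 to 1426 CPM in the other sections, 899 CPM of the microglia list, against 394 to 514 CPM, and 23533 CPM of the wider astrocyte list, against 11317 to 13037 CPM. Their part in the members' levels was not tested. Without trained 2 the median of the members was -0.06, and without trained 1, where trained 2 stands alone for its group and its spread is taken from the untrained sections, it was 1.24 with 5 members called (1.33% of all genes). In the inter-layer hippocampus the 7 members tested were also above 0 (median 0.29), and without trained 2 the median there was -0.11. Without trained 1, on the same footing, it was 0.58, with Slc1a2 (0.97, adjusted p = 0.0109) and Slc1a3 (1.29, adjusted p = 0.00307) called (1.58% of all genes).

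**Figure D5:**
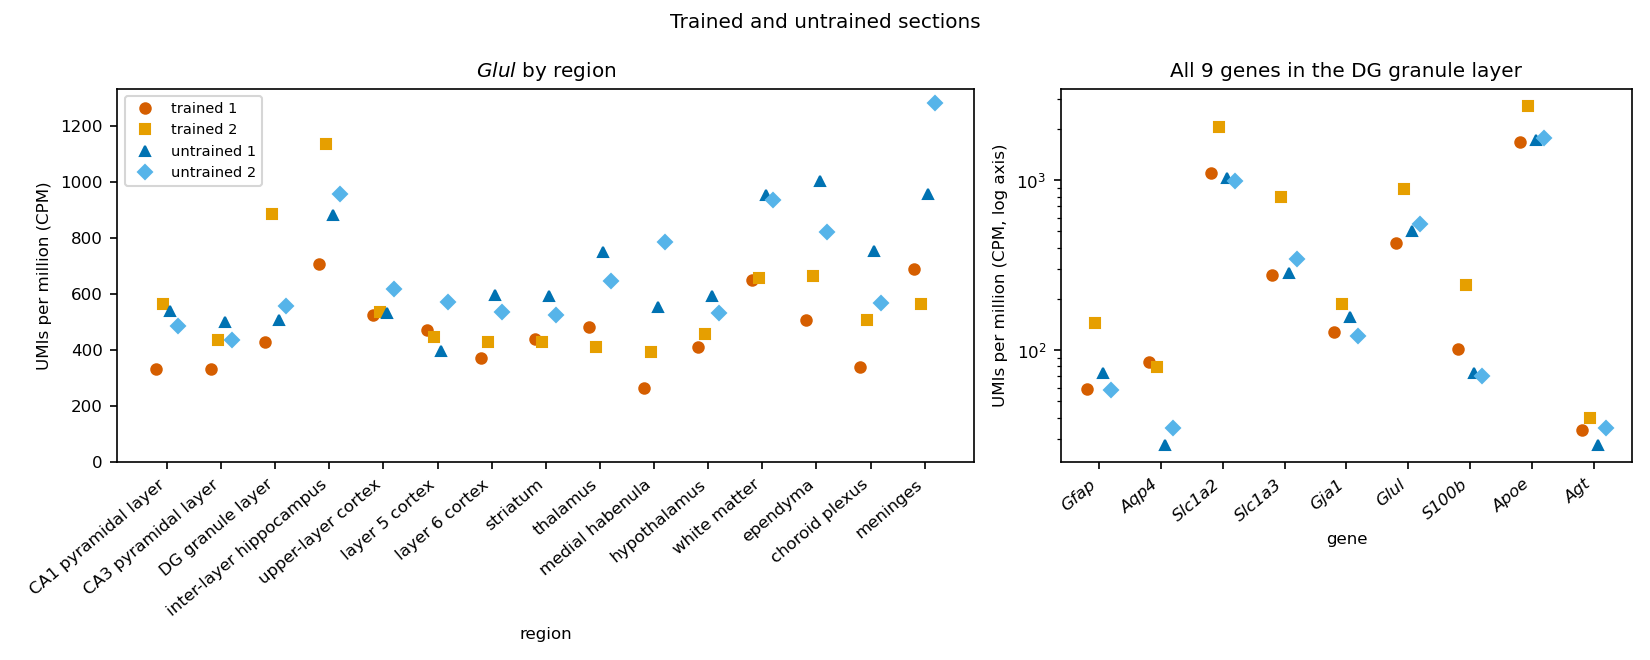
Left, Glul in CPM by region, a point per section, trained and untrained in different colours; right, CPM of the 9 genes in the DG granule layer on a log axis. Trained points lie below untrained ones for Glul in 10 of 15 regions, and in the granule layer trained 2 lies above the other sections for most genes (Slc1a2 at 2061 against 982 to 1096).

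Whether the effect of training differed between a region and the other regions was tested as an interaction over the 60 sums. It was called for 0 of the 135 combinations of a member and a region, against 0.0167% of the combinations of all genes, so neither the values above 0 in the granule layer nor the Glul values below 0 in the thalamus, habenula and white matter differed past the threshold from those of the other regions. Before adjustment 22 of the 135 edgeR values were below 0.05, against 5.25% over all genes and regions, and 6 of the 22 were in the granule layer, against 5.03% of all genes there. Without trained 1, 10 combinations were called, against 0.174% of those of all genes, 5 of them in the DG granule layer (0.496% of all genes), which then rested on trained 2 alone for the trained group.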

How the data were processed

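The authors deposited a filtered matrix of UMI counts per gene and spot for each section, with spot positions. The matrix headers name Space Ranger 1.2.2, while the methods name a later version with a mouse mm10 reference, and the submitters' processing notes list Cell Ranger 8, STAR and mm39. The gene set of the files has 32285 genes. Coordinates and sequences here are those of GRCm38 and were taken by gene name. Images and single-nucleus data were not analysed here.

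Spots with fewer than 200 UMIs or fewer than 2 neighbours were given no region. For each region, the log levels of its marker genes in a spot, with the 6 neighbouring spots added at a weight of 0.25, were standardized within the section and averaged, and the score was scaled to put the median at 0 and the 99th percentile at 3. A spot took the region of its highest score above a minimum of 1 for broad regions, 1.5 for layers and 2 for small regions. Patches of fewer than 4 touching spots (15 for broad regions) were dropped. Spots with no region that lay within the outline of the hippocampal layers, up to 4 steps from a layer, were inter-layer hippocampus. The scoring rule was set while viewing region maps and not the members. Counts were summed per region and section, with at least 10 spots per sum.

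Sums were tested two-sided with edgeR 4.0.16 (glmQLFit and glmQLFTest, filterByExpr, TMM, Benjamini-Hochberg over all genes tested, threshold 0.05) in R 4.3.3 with limma 3.58.1. The regional and interaction fits hold a term for each section. Fold changes are the log2 values that each tool reports, and CPM are counts per 1000000 UMIs of the sum. The log2 CPM behind the correlations used a prior count of 2. Alternatives were DESeq2 1.42.0, no filter, sums thinned to the smallest total, abundant genes left out, edge spots left out, a score margin of 0.5 over the next region, no section term, the replicate number as a block and each section left out. The code was tested on simulated data. Figures and tables used Python 3.11.15, numpy 2.4.6, pandas 2.3.3, scipy 1.17.1 and matplotlib 3.10.9.

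Sections are the replicates, 1 per mouse, and spots are not. The 9 members, the gene lists and the rule for named genes (at most 5 called genes of a list by adjusted p, and the 3 genes closest to a member in pattern) were chosen with earlier results of these data known. Spot barcodes mark array positions, and 1353 to 2413 of them were shared by a pair of sections. A count of 0 was given a limit of 3 counts. Intervals are 95% Wilson intervals. Same-numbered trained and untrained sections did not deviate together (r = 0.019 over 13810 genes), so the numbers were not taken as pairs.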

Additional observations from a re-analysis of the deposited data

How the results depend on the processing

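With 2 sections a group, the count of genes called between trained and untrained whole sections was 2, but 21 in DESeq2, 211 without the filter on low counts and 2 to 848 with a section left out (848 without trained 1, 40 without trained 2 and 8 without untrained 2). Members called there went from 0 to 0 to 1 with a section left out, and members called within regions from 1 to 0 in DESeq2, 0 with thinned counts, 0 without edge spots and 0 to 10 with a section left out. With thinned counts 45 regional combinations were tested, 22 of them among the 68 regional calls, and 11 were called, while with a section left out 58 to 67 were called, and interaction calls went from 0 to 0 to 10. The causes of these changes were not tested. Some whole-section differences near 0 changed sign: Aqp4 was 0.0059 without the filter, 0.0537 thinned and 0.0612 without edge spots, and S100b was -0.0186 thinned. With a section left out, Aqp4 ran from -0.18 to 0.15, Slc1a3 from -0.10 to 0.20, S100b from -0.0900 to 0.15 and Agt from -0.0932 to 0.37. Gfap ran from -0.59 to -0.17 without changing sign, Apoe from -0.33 to -0.11 and Slc1a2 from -0.30 to -0.13. Gja1 ran from -0.26 to -0.075 and Glul from -0.48 to -0.39. In the DG granule layer Glul ran from -0.33 to 0.85, Apoe from -0.0610 to 0.77, Gja1 from -0.0514 to 0.63, Gfap from -0.0875 to 1.31 and Slc1a3 from -0.23 to 1.43.

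With the replicate number as a block, though the numbers did not pair the sections, 47 genes were called over the whole section, 0 of them members, and 2 members within regions, Glul in the thalamus (-0.71, adjusted p = 0.00655) and Gfap in white matter (-1.01, adjusted p = 0.000596), while Glul in the meninges spots was not called (-1.06, adjusted p = 0.357).

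The depth of untrained 1 limits low values, and the Gfap and Agt sums of small regions rest on few UMIs. The small regions hold 16 to 38 spots in some sections, and region borders set from marker genes can take in neighbouring tissue.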
